A study of Mus musculus with 26 samples.

Results

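Liver tumors of Fah-/- recipient mice were set against spontaneous liver tumors of Alb-Cre:Hdac3-/- mice, with 3 samples in each group, chosen by their titles from the 26 samples of the series. The recipient tumors came from C57BL/6 mice with the genotype Fah-/- at 12 months, and the labels call these mice recipients without naming the donor cells. The Hdac3-/- tumors came from C57BL/6 mice with the genotype Alb-Cre:Hdac3-/- at 10 months, in which the albumin promoter drives Cre and so directs the deletion to hepatocytes. Age, host genotype and the origin of the tumor therefore differ together between the groups and cannot be told apart. Adjacent non-tumor tissue of Alb-Cre:Hdac3-/- mice at 10 months, also with 3 samples, gave a reference level. The design text of the series names a Pearson correlation between the 2 tumor groups as the question for these samples. All were bulk mRNA libraries of frozen liver tissue, and each of these 9 held 10081603 to 11094627 expected counts.

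Fah encodes fumarylacetoacetate hydrolase, the last enzyme of tyrosine breakdown. Hepatocytes without it are injured by the metabolites upstream of the block, so that transplanted hepatocytes that carry the gene can take over the liver of such a recipient. Hdac3 encodes a histone deacetylase that works in nuclear corepressor complexes and, in the liver, holds lipid synthesis and other metabolic genes in check.

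Neither targeted gene separated the groups. The level of Fah, in CPM (counts relative to the library total, scaled by the trimmed mean of M-values, TMM), was 328, 276 and 463 in Hdac3-/- tumors 1 to 3, 493, 319 and 303 in recipient tumors 1 to 3, and 867, 1089 and 965 in the adjacent tissue. Fah transcripts were thus listed in all 3 samples labelled Fah-/- at levels that overlapped those of the Hdac3-/- tumors, and all 6 tumors lay below the 3 adjacent samples. Hdac3 stood at 54.6, 64.8 and 62.9 CPM in the Hdac3-/- tumors and 55.1, 42 and 50.5 CPM in the recipient tumors, against 56.5, 64.4 and 53.1 CPM in the adjacent tissue. The counts are summed over the whole gene, so they show neither which part of a disrupted gene was transcribed nor which cells made the transcript, and they do not check either genotype.

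The samples did not all lie closest to their own group. The correlation used below is Pearson's r of log2(CPM + 1) across the 13187 genes tested; it runs over genes, which are not independent replicates, and carries no test. Among all 15 pairs of tumors the highest value, 0.983, belonged to recipient tumor 3 and Hdac3-/- tumor 1, which come from different groups. The next was 0.971 for Hdac3-/- tumors 2 and 3. Hdac3-/- tumor 1 was less like its own group, with 0.945 and 0.943. Recipient tumor 3 correlated at only 0.925 with recipient tumor 1 and 0.877 with recipient tumor 2. Of the 9860 genes at 5 CPM or more in either of recipient tumor 3 and Hdac3-/- tumor 1, 1.84% differed by more than 1 log2 unit; the corresponding share was 4.72% for Hdac3-/- tumors 2 and 3 and 28.2% for recipient tumors 1 and 2. This pair was still not the same library: the chi-square of its counts per degree of freedom was 13.4, where sampling noise alone gives about 1, and it was 40.1 for the next closest tumor pair.

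**Figure D1:**
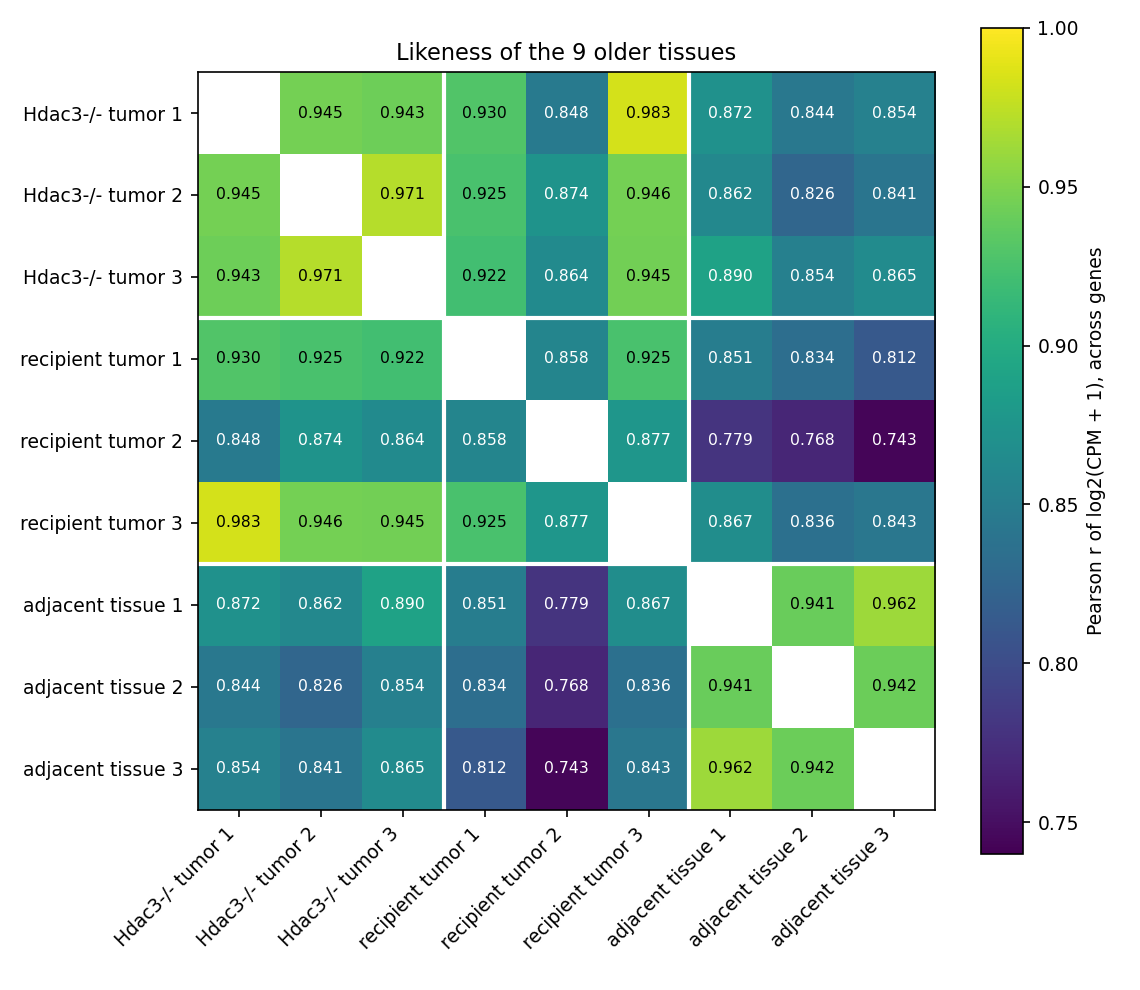
Pearson's r of log2(CPM + 1) across 13187 genes for each pair of the 9 older tissues, with the value printed in each cell and white lines between the groups. Recipient tumor 3 and Hdac3-/- tumor 1 gave the highest value, 0.983, and recipient tumor 2 the lowest row, from 0.743 with adjacent tissue 3 to 0.877 with recipient tumor 3.

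Among genes that only 1 tumor expressed highly, those of Hdac3-/- tumor 1 showed the same likeness and those of recipient tumor 2 did not. Genes were taken at 50 CPM or more in 1 sample and more than 8-fold above each of the other 4 tumors (after adding 0.5 CPM), leaving recipient tumor 3 out of the choice. Hdac3-/- tumor 1 had 4 such genes: Rtl1 (an imprinted gene derived from a retrotransposon), Nnmt (nicotinamide N-methyltransferase), Oxct1 (a ketone-body-using enzyme) and Mmd2. Rtl1 stood at 144, 0.303 and 0.10 CPM in the Hdac3-/- tumors and 0.304, 0.635 and 133 CPM in the recipient tumors. Nnmt stood at 84.4, 1.42 and 2.41 against 0.809, 0.635 and 108 CPM, and Mmd2 at 65.4, 0.404 and 0.301 CPM and 0, 0.272 and 54.9 CPM in the same order. Recipient tumor 3 thus held all 4 at 76.0% to 128% of the level in Hdac3-/- tumor 1 (median 88.0%), and all 4 were above the remaining 4 tumors. Of 36 genes high only in recipient tumor 2, recipient tumor 3 held a median of 11.3% of that level (interquartile range 7.67% to 14.6%, lowest 1.76%, highest 19.4%), and it exceeded the remaining 4 tumors at 34 of them. It exceeded Hdac3-/- tumor 1 at all 36, with a median of 358% of the level there. Of 6 genes high only in recipient tumor 1 it held a median of 3.27%. Whether material or identity is shared between these samples was not tested. Recipient tumor 3 and Hdac3-/- tumor 1 are therefore named the most alike pair below. Counts of genes without overlap are given with and without this pair, as are fold changes printed with a standard error. Other counts include the pair unless said.

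**Figure D2:**
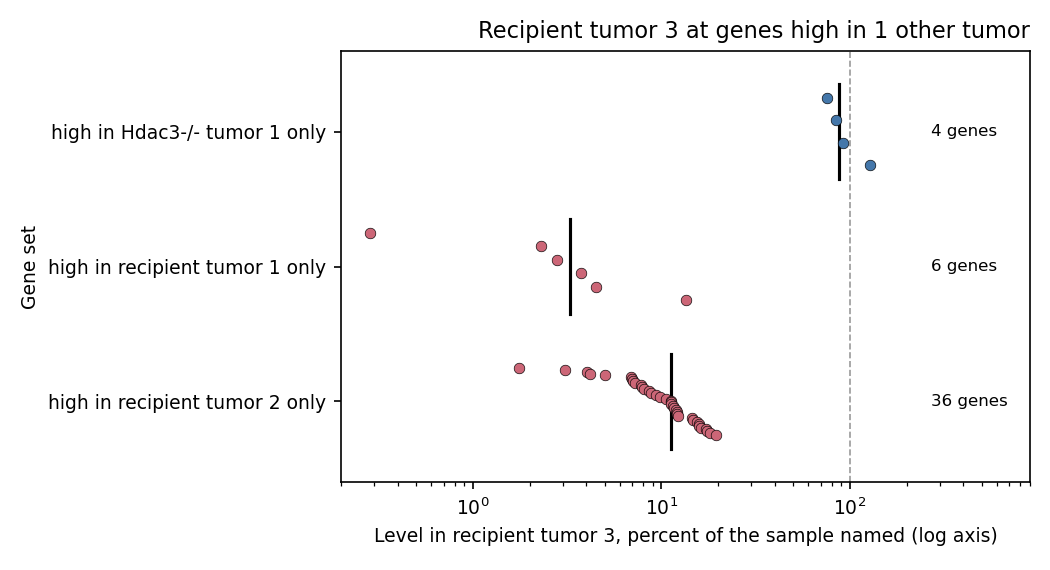
Level in recipient tumor 3 as a percent of the level in the sample where each gene is high (log axis), for genes high in Hdac3-/- tumor 1, recipient tumor 1 or recipient tumor 2 only. Each point is 1 gene, black bars are medians (88.0%, 3.27% and 11.3%) and the dashed line marks an equal level.

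X- and Y-linked transcripts also differed within the Hdac3-/- group. Transcripts of 4 genes on the Y chromosome (Uty, Kdm5d, Ddx3y, Eif2s3y) together reached 38.4 CPM, before scaling, in Hdac3-/- tumor 3 and 20.7 in adjacent tissue 2, and at most 0.198 in the other 7 older samples. Xist, which silences an X chromosome in female cells, was at 138, 139 and 0.903 CPM in the Hdac3-/- tumors and 46.1, 56.7 and 108 CPM in the recipient tumors. The part of sex in the differences below was not tested beyond a fit with this split as a covariate. Sets of markers for the exocrine pancreas, fat and intestine each summed to at most 7.48 CPM in any tumor. The hepatocyte set (Alb, Ttr, Apoa1, Apob, Hnf4a and Cps1) summed to 25478, 98530 and 77966 CPM in the Hdac3-/- tumors and 42850 (recipient tumor 1), 54226 (recipient tumor 2) and 20705 CPM (recipient tumor 3), so its lowest sums were in the most alike pair. In bulk tissue, fewer cells of a type and less RNA per cell cannot be told apart.

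The recipient tumors were more unlike one another than the tumors of the other group. Mean r was 0.887 ± 0.035 (SD over 3 pairs) among the recipient tumors and 0.953 ± 0.016 among the Hdac3-/- tumors, with no overlap between the 3 values of each on this scale, although they overlapped on linear CPM, where Hdac3-/- tumors 1 and 2 gave 0.844 and recipient tumors 2 and 3 gave 0.854. Between the groups it was 0.915 ± 0.044 over 9 pairs, from 0.848 to 0.983, so the recipient tumors were on average no less like the Hdac3-/- tumors than like one another. Without recipient tumor 3 and Hdac3-/- tumor 1 the remaining 4 pairs between groups averaged 0.896, and the 1 remaining recipient pair stood at 0.858. Both groups lay farther from adjacent tissue, at 0.743 to 0.867 for the recipient tumors and 0.826 to 0.890 for the Hdac3-/- tumors. The median SD of a gene's log2(CPM + 1) was 0.44 in the recipient tumors, 0.28 in the Hdac3-/- tumors and 0.32 in the adjacent tissue, and 1548, 402 and 457 genes had an SD above 1.

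Recipient tumor 2 stood farthest apart. It lay more than 1 log2 unit above both other recipient tumors at 754 genes and below both at 1008, together 13.4% of the genes tested. For recipient tumor 1 the counts were 558 above and 502 below, and for recipient tumor 3 they were 479 above and 239 below. In the Hdac3-/- group, tumor 1 stood apart in the same way at 435 and 279 genes, while tumors 2 and 3 did so at 92 to 124 genes in each direction.

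**Figure D3:**
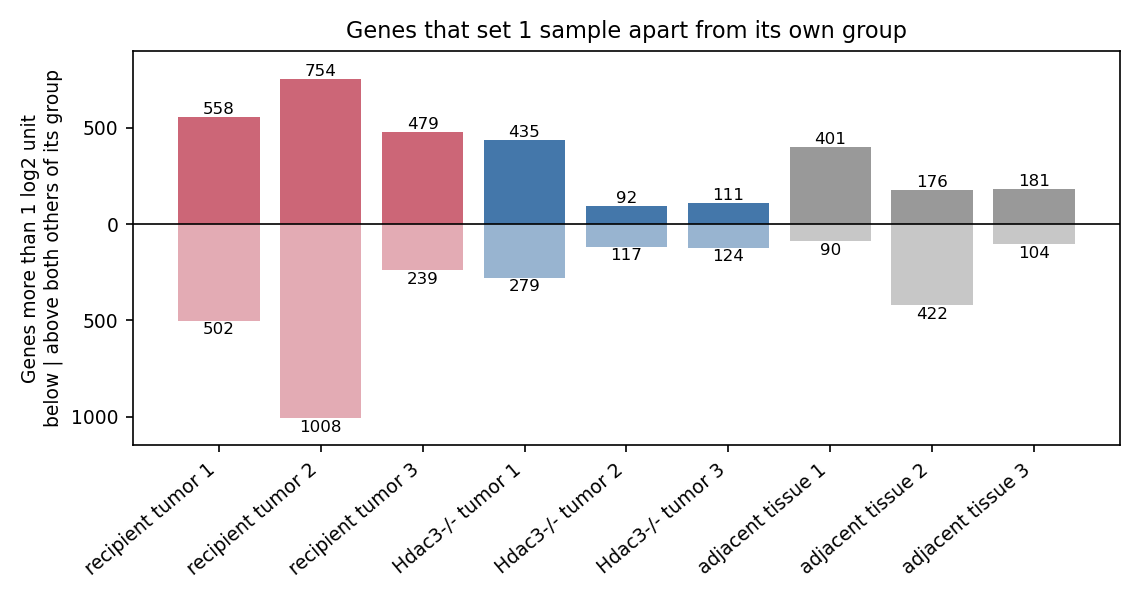
Number of genes at which each sample lay more than 1 log2 unit above (upper bars) or below (lower, paler bars) both other samples of its own group, of 13187 genes. Recipient tumor 2 has the longest bars, 754 and 1008, and Hdac3-/- tumors 2 and 3 the shortest.

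The 12 genes of widest range among the recipient tumors were taken at a mean of 20 CPM or more. Igfbp6, a binding protein that prefers insulin-like growth factor 2, had the widest range of all: 1.82, 3588 and 260.5 CPM in recipient tumors 1 to 3 and 4.81, 1.21 and 4.12 CPM in the Hdac3-/- tumors. The level was high in recipient tumor 2, lower in recipient tumor 3, and within the range of the Hdac3-/- tumors in recipient tumor 1. Slc34a2, Bmp8b, Sult2a1, Sult2a2, Hamp, Fabp1, G6pc, Orm2, Apoa4 and Etnppl were also among them. Hamp, which encodes the iron hormone hepcidin, stood at 1.42, 522 and 62.7 CPM in the recipient tumors against 56.5, 4.85 and 69.3 CPM in the Hdac3-/- tumors and 375, 784 and 959 CPM in adjacent tissue. Apoa4, a lipid-binding apolipoprotein, stood at 55926, 188 and 8509.5 CPM in the recipient tumors and 14876, 21888 and 13524 CPM in the Hdac3-/- tumors; recipient tumor 1 was above and recipient tumor 2 far below every tumor of the other group. Sult2a1 and Sult2a2 are near-identical sulfotransferases, as are members of the Cyp2c, Cyp2d, Cyp3a, Saa and hemoglobin families, and reads could be split between such genes in the counting.

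Slc34a2 and Bmp8b were among the 5 genes taken as those in which recipient tumor 1 lay farthest above both other recipient tumors. Slc34a2, a sodium-phosphate cotransporter, reached 285, 0.0908 and 0.813 CPM in recipient tumors 1 to 3. Bmp8b, a ligand of the bone morphogenetic protein family, was at 657, 1.91 and 15 CPM, and in the Hdac3-/- tumors at 14.4, 0.809 and 0.301 CPM. Tmem254c, Igfbp2 and the heparan sulfate proteoglycan gene Gpc1 were the others farthest above, at 139.7, 3.09 and 3.9, at 82.7, 2.99 and 3.74 and at 78.2, 1.72 and 3.9 CPM. By this choice recipient tumor 1 was the high sample at all 5, and the other recipient tumors lay at 15 CPM or lower. Among the genes farthest below were Igfbp6, Sult2a1, the secreted ribonuclease gene Rnase4 (4.86, 595 and 236 CPM) and Igsf23 (1.52, 133 and 167 CPM). Rnase4 and Igsf23 were low in recipient tumor 1 alone, since the Hdac3-/- tumors had 133, 242 and 137 and 165, 99.4 and 121 CPM.

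Recipient tumor 2 was marked by Afp, Krt19 and Slc4a1 on the high side and by lipid and glucose genes such as Fabp1, Fads2 and G6pc on the low side. Afp, the albumin-like protein of fetal liver and of many liver cancers, stood at 23.7, 2473 and 76.1 CPM in the recipient tumors, 54.2, 5.05 and 1.1 CPM in the Hdac3-/- tumors and 1.47, 0.797 and 0.929 CPM in adjacent tissue. Krt19, a keratin of bile duct cells, stood at 0.506, 105 and 4.23 CPM in the recipient tumors and 1.44, 1.62 and 1.51 CPM in the Hdac3-/- tumors. Slc4a1, the anion exchanger of red cells, stood at 0.304, 64.7 and 1.14 CPM in the recipient tumors and 0.507, 2.63 and 0.401 CPM in the Hdac3-/- tumors. The red cell set (Hba-a1, Hbb-bs and Alas2) summed to 286, 702 and 277 CPM in the recipient tumors and 612, 689 and 163 CPM in the Hdac3-/- tumors. Afp, Krt19 and Slc4a1 were chosen because recipient tumor 2 lay far above both other recipient tumors. At Afp and Krt19 recipient tumor 3 also lay above every Hdac3-/- tumor, while recipient tumor 1 did not. The duct gene Epcam stood at 0.202, 3.45 and 1.14 CPM and Sox9, a transcription factor of duct and progenitor cells, at 9.41, 18.8 and 13.6 CPM in the recipient tumors, with 7.6, 32.4 and 27.4 CPM in the Hdac3-/- tumors. Over 13 duct and progenitor markers, the median difference from the Hdac3-/- mean was 0.19, 1.19 and 0.06 log2 units in recipient tumors 1 to 3. It was 0.13, 0.03 and -0.20 in the Hdac3-/- tumors. At each of the 13 the groups overlapped. Without the most alike pair, 6 of the 13 lay higher in the recipient tumors and 1 lower, beside 23.4% and 23.8% of all genes. Obsl1 and Ager, described below, were the other genes farthest above in recipient tumor 2.

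The genes farthest below in recipient tumor 2 were Fabp1 (a fatty acid binding protein), Wfdc2, G6pc (glucose-6-phosphatase, which releases glucose), Fads2 (a fatty acid desaturase) and Ly6d. Fabp1 stood at 457, 0.908 and 257 CPM in the recipient tumors and 167, 39.9 and 31.9 CPM in the Hdac3-/- tumors. G6pc stood at 152, 0.726 and 288 CPM and 272, 39.7 and 25.1 CPM, and Fads2 at 1258, 14.3 and 1242 CPM and 1305, 276 and 502 CPM. Recipient tumor 2 was the lowest of all 6 tumors at each of these 3 genes, while recipient tumors 1 and 3 lay within or above the Hdac3-/- range.

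In recipient tumor 3 the genes farthest above were Saa1, Saa2, Nnmt, Sds and Rtl1. Sds, which breaks down serine, stood at 5.97, 2.54 and 377 CPM in the recipient tumors and 294, 1.72 and 47.7 CPM in the Hdac3-/- tumors. Saa2, an acute phase protein, stood at 1.01, 0.635 and 116 CPM and 24.4, 44.2 and 10.5 CPM. For Nnmt, Sds and Rtl1 the nearest level to recipient tumor 3 was that of Hdac3-/- tumor 1. The genes farthest below were Atp2b2, Slco3a1, Syde1, Bicc1 and Emilin1. Emilin1, a matrix glycoprotein, stood at 315, 389 and 63.5 CPM in the recipient tumors and 57.2, 204 and 102 CPM in the Hdac3-/- tumors, so recipient tumor 3 was again nearest to Hdac3-/- tumor 1.

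No gene passed the test between the 2 tumor groups. In edgeR's quasi-likelihood test, with the adjacent samples in the fit to share the estimate of spread, 0 of 13187 genes (0.0%) had a Benjamini-Hochberg adjusted p under 0.05, and the smallest adjusted p was 0.671. Unadjusted p-values under 0.05 were found for 495 genes higher (3.75%) and 417 genes lower (3.16%) in recipient tumors, 912 in all. DESeq2's Wald test on the same samples gave an adjusted p under 0.05 to 32 genes higher (0.243%) and 12 lower (0.091%). Recipient tumor 2 was the highest recipient sample at 29 of the 32 and recipient tumor 1 at the other 3. With recipient tumor 2 left out, DESeq2 called 3 higher and 5 lower, of which 6 were among the 44; with the most alike pair left out it called 138 higher and 139 lower, including 40 of the 44. With all 26 samples in the edgeR fit, 53 genes were called higher and 23 lower. The calls thus turned on the tool and on which samples set the spread.

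Without regard to a test, all 3 recipient tumors lay above all 3 Hdac3-/- tumors at 669 genes (5.07% of those tested) and below them at 954 (7.23%). Without the most alike pair these shares were 23.4% and 23.8%. In groups this small some genes lack overlap by chance alone, and more do so when fewer samples are compared. The shares with and without the pair are therefore not comparable with each other. The median log2 fold change over all genes was 0.02. Log2 fold changes below are recipient tumors against Hdac3-/- tumors, each with its standard error (SE) from the edgeR fit. Where levels are set against each other without naming the groups, those of Hdac3-/- tumors 1 to 3 come before those of recipient tumors 1 to 3. The adjusted p was 0.671 for every gene whose fold change is printed with an SE, unless given.

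Eps8 had the smallest unadjusted p of all genes. It encodes a substrate of the epidermal growth factor receptor that binds actin. Its level was 2.2, 3.54 and 2.71 CPM in the Hdac3-/- tumors, 38.2, 57.9 and 7.4 CPM in the recipient tumors and 2.05, 1.71 and 2.38 CPM in adjacent tissue. All 3 recipient tumors lay above the other 6 samples, with recipient tumor 3 the lowest of them. The log2 fold change was 3.61 (SE 0.64, unadjusted p = 2.48e-04 in edgeR's test), and 3.94 without the most alike pair. The DESeq2 adjusted p was 7.49e-05, and 0.0058 without recipient tumor 2. It was also the single gene to pass the edgeR test when recipient tumor 3 was left out, with a log2 fold change of 4.08 and an adjusted p of 0.011. Eps8 was singled out after its values were seen.

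The 10 largest differences upward among genes with no overlap between the groups were Obsl1, Gpc3, Ager, Atp2b2, Peg3, Klhl13, Tmem254c, Tppp3, Lpcat4 and Slc6a4. None passed the edgeR test. Gpc3, a cell-surface proteoglycan of fetal liver and hepatocellular carcinoma, stood at 3.46, 8.39 and 1.41 CPM in the Hdac3-/- tumors, 16.4, 569 and 68.4 CPM in the recipient tumors and 0.293, 0.342 and 0.929 CPM in adjacent tissue. Every tumor lay above the adjacent tissue, and recipient tumor 2 was far above the rest. Its log2 fold change was 5.62 (SE 1.27) with a DESeq2 adjusted p of 7.49e-05, and without recipient tumor 2 the edgeR estimate was 3.26 and the DESeq2 adjusted p 0.0275. The estimate was 5.90 without the most alike pair.

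Klhl13, a substrate adaptor of a ubiquitin ligase, stood at 18.6, 5.26 and 7.63 CPM in the Hdac3-/- tumors and 24.7, 759 and 88.7 CPM in the recipient tumors. Peg3, an imprinted zinc-finger gene, stood at 1.6, 0.607 and 0.301 against 2.63, 62.3 and 9.91 CPM, and Lpcat4, a phospholipid acyltransferase gene, at 7.77, 6.47 and 4.22 against 11.5, 251 and 22 CPM. In these 3 genes, as in Gpc3, the order among recipient tumors was 2, then 3, then 1. Atp2b2, a calcium pump of the plasma membrane, had another order, at 1.44, 1.92 and 0.502 against 53, 54.4 and 5.12 CPM. Recipient tumors 1 and 2 were alike there and recipient tumor 3 lay nearer to the Hdac3-/- tumors, with a log2 fold change of 4.85 (SE 1.15) and a DESeq2 adjusted p of 0.00108. The DESeq2 call was lost without recipient tumor 2 (log2 fold change 4.48, DESeq2 adjusted p 0.398), and without the most alike pair the log2 fold change was 5.46. Obsl1 stood at 0.929, 0.101 and 0.401 against 1.01, 88.9 and 3.74 CPM. The receptor gene Ager stood at 0.760, 0.505 and 0.602 against 1.11, 65 and 3.25 CPM. Tmem254c stood at 1.77, 2.93 and 2.21 against 139.7, 3.09 and 3.9 CPM. Each of Obsl1, Ager and Tmem254c was carried by a single recipient tumor. Gpc3, Klhl13, Peg3, Lpcat4, Obsl1 and Ager were among the 36 genes high only in recipient tumor 2, described above. At these genes recipient tumor 3 held 4.2% to 15.9% of the level in recipient tumor 2. Its place above the Hdac3-/- tumors there is thus part of the share already described for the 36. Tmem254c was among the 6 genes high only in recipient tumor 1, and Atp2b2, Tppp3 and Slc6a4 were in neither set. The serotonin transporter gene Slc6a4 stood at 1.01, 0.303 and 0.10 CPM in the Hdac3-/- tumors and 3.84, 15.6 and 1.3 CPM in the recipient tumors. The tubulin-binding protein gene Tppp3 stood at 0.169, 0.505 and 0.602 against 2.63, 18.2 and 1.06 CPM. At Slc6a4, Tppp3, Obsl1, Ager and Tmem254c the margin between the groups was under 1 CPM.

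The 10 largest differences downward were Sult1e1, Akr1c18, Cyp2d12, Raet1e, Cyp2c69, Cpe, Lum, Map1b, AA986860 and Cyp21a1, and none passed the edgeR test. Akr1c18, Cyp21a1 and Sult1e1 act on steroids. Akr1c18, a steroid dehydrogenase that inactivates progesterone, stood at 6.84, 57.6 and 66.7 CPM in the Hdac3-/- tumors, 2.53, 0.182 and 3.25 CPM in the recipient tumors and 0.978, 0.114 and 0.723 CPM in adjacent tissue. Hdac3-/- tumors 2 and 3 were the high samples, and tumor 1 lay nearer to the recipient tumors. The log2 fold change was -4.45 (SE 1.02), with a DESeq2 adjusted p of 0.00251, and 0.00509 without recipient tumor 2. The log2 fold change was -5.53 without the most alike pair.

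Cyp21a1, the steroid 21-hydroxylase gene, stood at 45, 173 and 312 CPM in the Hdac3-/- tumors and 21.7, 14.4 and 35.8 CPM in the recipient tumors, above the 2.15, 10.7 and 1.65 CPM of adjacent tissue. Sult1e1, the estrogen sulfotransferase gene, stood at 0.422, 24.3 and 5.72 against 0, 0.182 and 0.406 CPM. Cpe, a carboxypeptidase that trims peptide hormones, stood at 126, 280.3 and 94.5 CPM in the Hdac3-/- tumors and 4.86, 0.363 and 54.8 CPM in the recipient tumors, where recipient tumor 3 was again nearest to the other group. Raet1e, a ligand of an activating receptor of natural killer cells, stood at 3.38, 9.91 and 15.3 against 0, 0 and 2.03 CPM, and the microtubule protein gene Map1b at 1.18, 8.09 and 7.03 against 1.01, 0.182 and 0.894 CPM. Cyp2d12 and AA986860 were highest in Hdac3-/- tumor 3, at 1.44, 6.17 and 43.1 and 2.62, 4.95 and 21.1 CPM, against 0.405, 1.18 and 1.38 and 0.607, 0.726 and 2.36 CPM in the recipient tumors. At Sult1e1, Map1b, Cyp2d12 and AA986860 the margin between the groups was under 1 CPM.

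**Figure D4:**
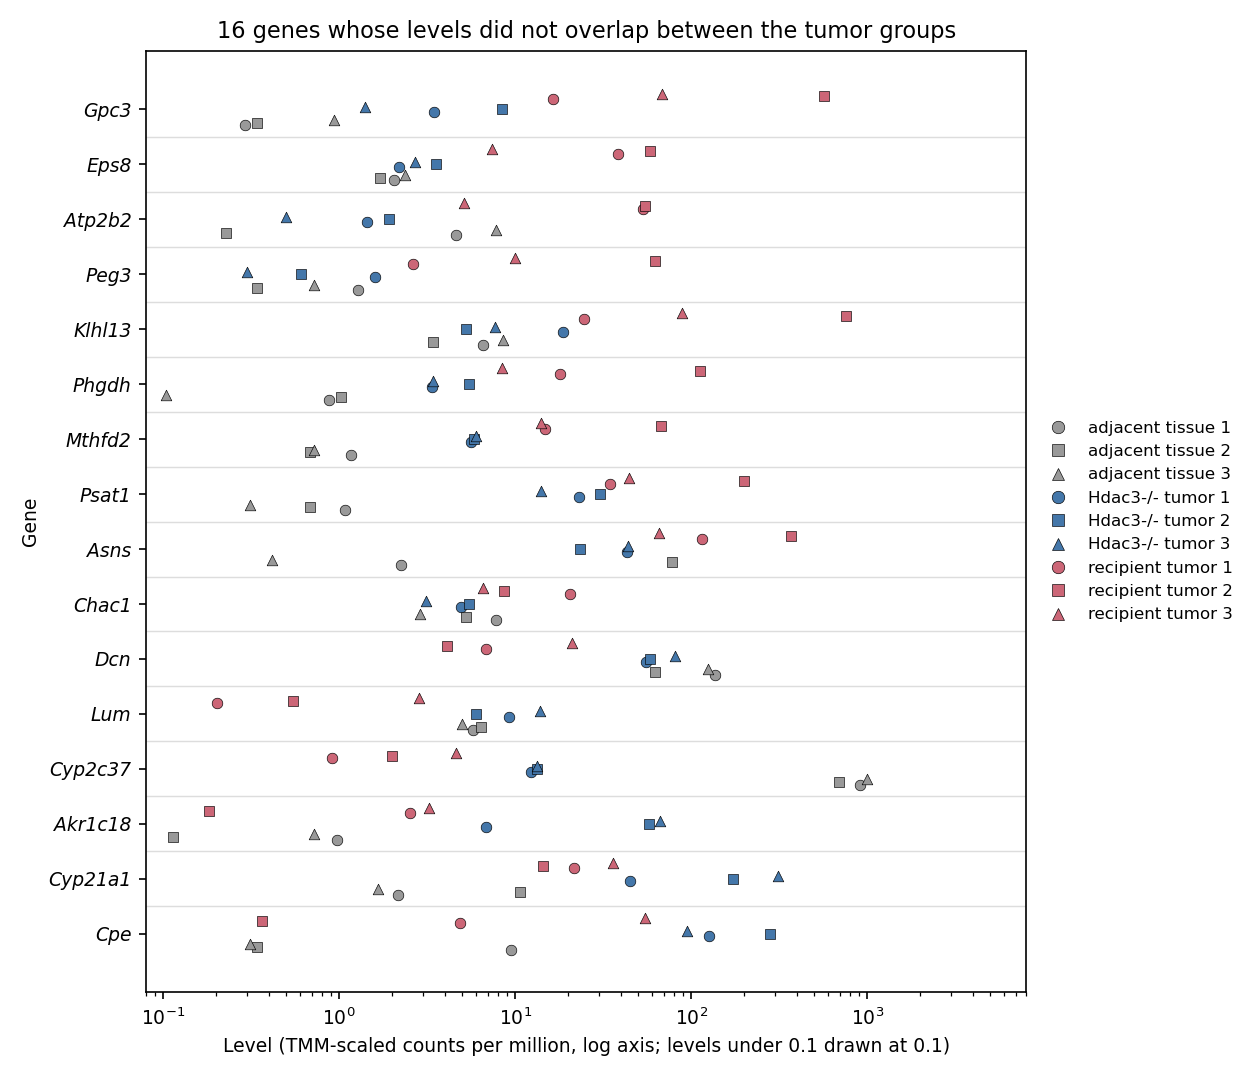
Level of 16 genes in each of the 9 older tissues, in TMM-scaled CPM on a log axis; colours mark groups and symbols mark samples 1 to 3. In each row all 3 recipient tumors lie on the same side of all 3 Hdac3-/- tumors, and recipient tumor 3 (triangle) or 1 (circle) lies nearest to them.

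Genes of the amino acid stress response lay on the high side in the recipient tumors. Atf4 is a transcription factor whose protein is made when amino acids are short or protein folding fails, and its targets import and synthesise amino acids. Of 15 genes of that response 0 passed the edgeR test, 4 had an unadjusted p under 0.05 and 6 lay higher without overlap, beside 5.07% of all genes; none lay lower. The list's median log2 fold change was 0.62, beside 0.02 over all genes. Without the most alike pair 10 of 15 lay higher, beside 23.4% of all genes. By sample, the median difference from the Hdac3-/- mean was 0.80, 0.95 and 0.25 log2 units in recipient tumors 1 to 3 and 0.10, -0.01 and -0.13 in the Hdac3-/- tumors. Recipient tumors 1 and 2 thus carried most of it, and recipient tumor 3 exceeded Hdac3-/- tumor 1 by a small margin.

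The promoters of a few of these 6 genes are shown because Atf4 pairs with other factors at elements written TGATGNAA, where N is any base. The windows run from 250 bases before to 50 after the gene start, from RefSeq on build GRCm38.p6, on the gene's own strand, with the element in capitals in whichever strand it was found.
Asns, chr6:7693160-7693459, reverse strand: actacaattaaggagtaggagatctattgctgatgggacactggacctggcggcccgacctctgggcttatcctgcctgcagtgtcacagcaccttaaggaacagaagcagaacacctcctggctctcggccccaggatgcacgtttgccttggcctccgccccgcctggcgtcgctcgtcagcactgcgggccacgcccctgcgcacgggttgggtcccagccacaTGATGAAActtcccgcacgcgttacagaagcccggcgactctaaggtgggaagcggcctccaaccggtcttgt
Chac1, chr2:119350992-119351291, forward strand: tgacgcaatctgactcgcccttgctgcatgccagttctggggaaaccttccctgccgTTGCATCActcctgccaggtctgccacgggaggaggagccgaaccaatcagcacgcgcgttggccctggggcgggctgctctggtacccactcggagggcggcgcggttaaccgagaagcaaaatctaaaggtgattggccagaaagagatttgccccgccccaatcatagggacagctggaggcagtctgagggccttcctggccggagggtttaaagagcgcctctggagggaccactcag
Phgdh, chr3:98339920-98340219, reverse strand: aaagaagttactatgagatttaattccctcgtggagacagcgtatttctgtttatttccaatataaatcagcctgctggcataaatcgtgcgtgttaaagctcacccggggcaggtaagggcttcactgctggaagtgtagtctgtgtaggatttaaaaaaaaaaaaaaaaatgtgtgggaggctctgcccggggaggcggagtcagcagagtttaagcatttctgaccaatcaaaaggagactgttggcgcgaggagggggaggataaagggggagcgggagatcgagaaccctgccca
Mthfd2, chr6:83317555-83317854, reverse strand: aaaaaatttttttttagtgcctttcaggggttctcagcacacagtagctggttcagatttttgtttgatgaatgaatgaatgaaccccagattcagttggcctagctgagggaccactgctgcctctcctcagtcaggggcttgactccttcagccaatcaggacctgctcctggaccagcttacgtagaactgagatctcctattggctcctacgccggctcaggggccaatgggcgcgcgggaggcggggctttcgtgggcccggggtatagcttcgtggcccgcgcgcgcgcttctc
The element begins 23 bases before the start of Asns on the gene's strand and 193 bases before that of Chac1 on the opposite strand, and its letters are not in the windows of Phgdh, Mthfd2, Psat1 or Shmt2. It was found in 7 of the 17 windows of the list's genes (41.2%), beside 2.34% of the 13318 windows of genes tested and 3.97% of all 32851 in the table, and in 2 of the 6 genes without overlap. It was also in the windows of Atf3, Fgf21, Nupr1, Slc7a11 and Trib3, genes of the list that overlapped between the groups. The list was chosen as genes of the Atf4 response, so its share describes that choice and not these tumors. These counts describe the letters, and say nothing of binding.

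The 6 genes without overlap were mainly enzymes of serine, one-carbon and asparagine synthesis. Phgdh, which starts serine synthesis, stood at 3.38, 5.46 and 3.41 CPM in the Hdac3-/- tumors, 18, 112 and 8.37 CPM in the recipient tumors and 0.88, 1.02 and 0.103 CPM in adjacent tissue. Psat1, the next enzyme, stood at 23.1, 30.2 and 14.1 CPM, 34.7, 198 and 44.2 CPM and 1.08, 0.683 and 0.31 CPM in the same order. Both genes were higher in every tumor than in every adjacent sample, and higher again in the recipient tumors. The log2 fold changes were 3.49 (SE 0.92) for Phgdh and 2.04 (SE 0.66) for Psat1. They were 1.69 and 0.81 without recipient tumor 2, and 3.87 and 2.40 without the most alike pair.

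Mthfd2, a mitochondrial folate enzyme, stood at 5.57, 5.86 and 6.02 CPM in the Hdac3-/- tumors and 14.7, 67.7 and 14 CPM in the recipient tumors. The Hdac3-/- tumors were close together and every recipient tumor had more than 2 times their highest level. Its log2 fold change was 2.46 (SE 0.59), with a DESeq2 adjusted p of 0.0248. Without recipient tumor 2 it was 1.30 and the DESeq2 call was lost (adjusted p 0.262), and without the most alike pair it was 2.79. Asns, which makes asparagine, stood at 43.1, 23.5 and 44 CPM in the Hdac3-/- tumors and 114, 369.7 and 65.3 CPM in the recipient tumors, with 2.25, 77.3 and 0.413 CPM in adjacent tissue, where sample 2 was high. Chac1, which degrades glutathione, stood at 4.9, 5.46 and 3.11 against 20.3, 8.62 and 6.58 CPM, and its adjacent levels of 7.82, 5.24 and 2.89 CPM overlapped both groups. Shmt2, a serine hydroxymethyltransferase gene, cleared the Hdac3-/- tumors only narrowly, at 247, 247 and 253 against 259, 314 and 257 CPM.

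Matrix genes had lower medians in recipient tumors 1 and 2. Of 18 matrix and stellate cell genes tested, 0 passed the edgeR test and 1, Lum, lay lower without overlap, beside 7.23% of all genes; the median log2 fold change was -0.77. Without the most alike pair 8 of 18 lay lower, beside 23.8%. By sample the median difference was -0.64, -2.07 and -0.05 log2 units in recipient tumors 1 to 3, so recipient tumor 3 was level with the Hdac3-/- tumors, at 0.14, 0.35 and -0.55. Lum, the matrix proteoglycan lumican, stood at 9.2, 5.96 and 13.9 CPM in the Hdac3-/- tumors, 0.202, 0.545 and 2.84 CPM in the recipient tumors and 5.77, 6.38 and 4.96 CPM in adjacent tissue. Mmp2, a matrix-degrading protease gene, stood at 3.46, 3.54 and 2.11 CPM in the Hdac3-/- tumors and 0.202, 0.182 and 2.84 CPM in the recipient tumors, while Loxl2, a collagen cross-linking enzyme gene, went the other way at 13.3, 23.7 and 9.94 against 17.6, 73.9 and 12.9 CPM.

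The related proteoglycan gene Dcn was not on the list and was picked after its values were seen. It stood at 55.1, 58.1 and 80.5 CPM in the Hdac3-/- tumors, 6.78, 4.08 and 21.1 CPM in the recipient tumors and 137, 61.9 and 124 CPM in adjacent tissue. Every recipient tumor lay below all 6 other samples. Its log2 fold change was -2.59 (SE 0.58), with a DESeq2 adjusted p of 0.0072, and 0.0275 without recipient tumor 2. With the most alike pair left out the log2 fold change was -3.67. Hand2, a transcription factor of mesenchymal cells that was also picked in this way, stood at 4.05, 2.53 and 8.43, 1.11, 0.908 and 1.71 and 17.8, 17.5 and 14.4 CPM in the same order. The stellate cell set (Des, Col1a1 and Col3a1) summed to 228, 211 and 85.2 CPM in the Hdac3-/- tumors and 54.8 (recipient tumor 1), 10.3 (recipient tumor 2) and 168 CPM (recipient tumor 3), and the part of fewer such cells was not tested.

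Endothelial and macrophage markers did not pass the test. Of 10 sinusoidal genes, 2 lay lower without overlap, beside 7.23% of all genes: Lyve1, a hyaluronan receptor gene, at 6.92, 11.6 and 14.4 CPM in the Hdac3-/- tumors and 5.26, 4.9 and 2.19 CPM in the recipient tumors, and Oit3 at 3.04, 3.64 and 13.8 against 2.23, 2.99 and 0.406 CPM. Without the most alike pair 3 of the 10 lay lower, beside 23.8%. Of 12 vascular genes, 1, Esm1, lay lower without overlap, a share near the 7.23% of all genes. Esm1 stood at 24.2, 37.9 and 16.8 against 6.58, 3.18 and 12.8 CPM, with 2.93, 0.342 and 0.516 CPM in adjacent tissue. Without the most alike pair 1 of the 12 lay lower and 2 higher, beside 23.8% and 23.4%. Of 16 Kupffer cell and macrophage genes, the 3 complement genes C1qa, C1qb and C1qc lay higher without overlap, beside 5.07% of all genes. Of the 16, 4 lay higher without the most alike pair, beside 23.4%. C1qa stood at 93.7, 108 and 118 CPM in the Hdac3-/- tumors, 120.4, 159 and 172 CPM in the recipient tumors and 185, 45.4 and 72.4 CPM in adjacent tissue. Clec4f, a marker of resident Kupffer cells, stood at 5.49, 4.25 and 28.1 against 1.62, 5.26 and 1.54 CPM, both well under the 165, 53.3 and 84.6 CPM of adjacent tissue. The 3 T cell markers Cd3d, Cd3e and Cd3g summed to at most 6.79 CPM in any tumor, and 6 of 13 T and natural killer cell genes were too low to test.

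Liver metabolism set recipient tumor 2 against the other recipient tumors more than it set the groups apart. The median difference of 12 glucose genes from the Hdac3-/- mean was 1.00, -2.58 and 0.10 log2 units in recipient tumors 1 to 3. For 23 genes of lipogenesis and lipid droplets it was 0.80, -1.65 and -0.03, for 23 genes of cholesterol synthesis 0.44, -1.25 and 0.26, and for 20 genes of fatty acid oxidation and ketones 0.34, -0.99 and 0.11. On all 4 lists recipient tumor 1 lay above and recipient tumor 2 below every Hdac3-/- tumor, with a narrow margin for recipient tumor 1 in cholesterol synthesis, where the Hdac3-/- values were 0.43, -0.13 and -0.15. The group medians of these lists, between -0.12 and 0.21, show neither sample. Without the most alike pair 1 to 3 genes of each list lay higher, none of the 4 shares above the 23.4% of all genes, and 1 to 6 lay lower; of those, 6 of 20 fatty acid genes was the 1 share above the 23.8% of all genes.

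Pck1, which commits carbon to glucose, stood at 1116, 1696 and 1691 CPM in the Hdac3-/- tumors and 464, 198 and 948 CPM in the recipient tumors, and was among the genes lower without overlap. Scd1, a desaturase that makes monounsaturated fat, stood at 3829.8, 8451 and 11834 against 2977, 436 and 4400.2 CPM, with recipient tumor 2 lowest.

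**Figure D5:**
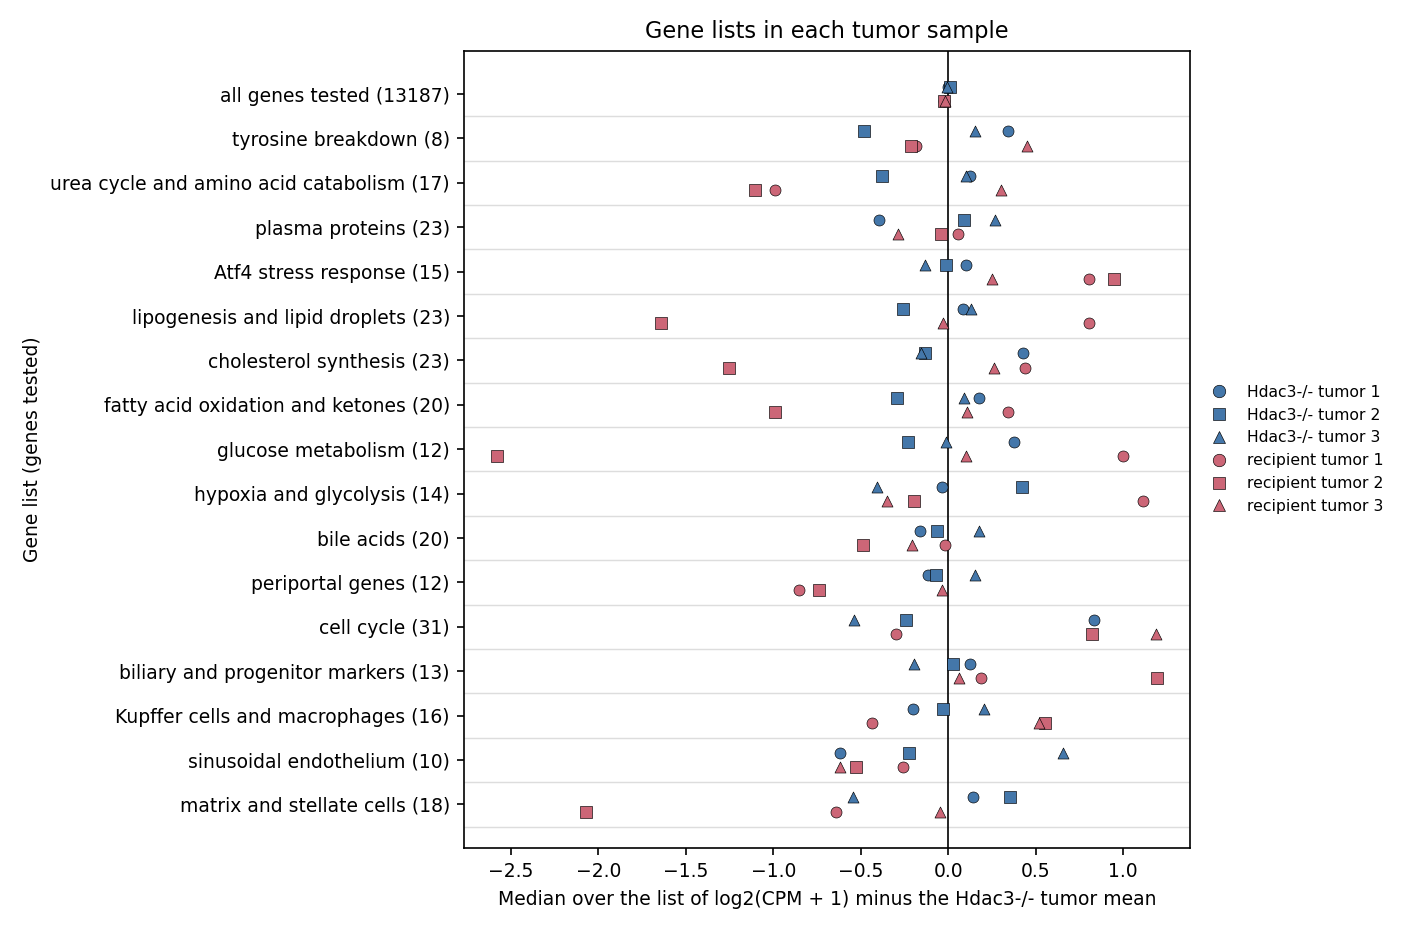
Median over each gene list of log2(CPM + 1) minus the mean of the Hdac3-/- tumors, by tumor sample, with the number of genes tested in brackets. In the glucose, lipogenesis, cholesterol and fatty acid lists recipient tumor 2 (square) lies far to the left, at -2.58, -1.65, -1.25 and -0.99, and recipient tumor 3 (triangle) lies among the Hdac3-/- tumors.

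Nitrogen and periportal genes had lower medians in recipient tumors 1 and 2. Of 17 genes of the urea cycle and amino acid breakdown, 1 lay lower without overlap: Cps1, which starts the urea cycle, at 2105, 2871 and 2783 CPM in the Hdac3-/- tumors and 1220.4, 287 and 2022 CPM in the recipient tumors. That share is no larger than the 7.23% of all genes, and without the most alike pair 7 of 17 lay lower, beside 23.8%. The list's medians by sample were -0.99, -1.11 and 0.30 log2 units in recipient tumors 1 to 3. The 12 periportal genes had medians of -0.85, -0.74 and -0.04, and 2 of them, Pck1 and Hsd17b13, lay lower without overlap, beside 7.23% of all genes. Of the 12, 7 lay lower without the most alike pair, beside 23.8%. Recipient tumor 3 lay slightly above the Hdac3-/- tumors in the former list and among them in the latter. Hal, Sds, Gls2, Ass1 and Arg1 are on both lists, so the medians and counts rest partly on the same genes. Of the 8 genes of tyrosine breakdown none separated the groups. Without the most alike pair 2 of the 8 lay higher and 2 lower, shares near the 23.4% and 23.8% of all genes. Hpd, whose product stands upstream of Fah, ranged widest, at 879, 286 and 634 CPM in the Hdac3-/- tumors and 266, 17.9 and 915 CPM in the recipient tumors; all 6 lay below the 2544, 3007 and 3799.7 CPM of adjacent tissue. Tat, which starts the pathway from tyrosine, stood at 2091, 1181 and 1891 against 1272, 2094 and 1785 CPM, Hgd at 369, 246 and 274 against 276, 279 and 407 CPM, and Gstz1 at 276, 130.4 and 199 against 188, 92.2 and 269 CPM. Pcbd1, which helps recycle the cofactor tetrahydrobiopterin, stood at 120.1, 124 and 153 against 88.6, 106 and 135 CPM. Qdpr, which acts in the same recycling, stood at 170.3, 97.3 and 146 CPM in the Hdac3-/- tumors and 110.4, 69 and 180.0 CPM in the recipient tumors.

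Of 20 drug-metabolising genes tested, 2, Cyp2c37 and Cyp3a25, lay lower without overlap, a share near the 7.23% of all genes. Leaving out the most alike pair, 7 of 20 lay lower, beside 23.8%. Cyp2c37 stood at 12.2, 13.3 and 13.2 CPM in the Hdac3-/- tumors, 0.911, 2.0 and 4.63 CPM in the recipient tumors and 906, 693 and 996 CPM in adjacent tissue. Its log2 fold change was -2.35 (SE 0.50), with a DESeq2 adjusted p of 0.00167, and 0.0275 without recipient tumor 2. The fold change was -3.18 log2 units without the most alike pair. Cyp3a25 stood at 365, 495 and 696 CPM in the Hdac3-/- tumors and 201, 6.9 and 292 CPM in the recipient tumors, with recipient tumor 2 lowest, and 272, 302 and 405 CPM in adjacent tissue. The pericentral genes Glul (glutamine synthetase) and Cyp7a1, whose product begins the making of bile acids, overlapped between the groups. Without the most alike pair Glul lay higher in the recipient tumors and Cyp7a1 still overlapped. Of 15 pericentral and Wnt genes none separated the groups. Without that pair 6 of the 15 lay higher and 2 lower, beside 23.4% and 23.8% of all genes. Glul stood at 296, 107 and 82 against 238, 315 and 290.3 CPM against 1319, 1371 and 1494 CPM in adjacent tissue. Cyp7a1 stood at 8.02, 0.708 and 3.71 against 18.7, 0.182 and 3.09 CPM against 252, 131 and 693 CPM.

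Growth genes differed among samples within both groups. The median difference of 31 cell cycle genes was -0.30, 0.82 and 1.19 log2 units in recipient tumors 1 to 3 and 0.83, -0.24 and -0.54 in the Hdac3-/- tumors, so recipient tumors 2 and 3 and Hdac3-/- tumor 1 were the high samples, and none of the 31 separated the groups. Without the most alike pair, 13 of 31 lay higher in the recipient tumors and 1 lower, beside 23.4% and 23.8% of all genes. Mki67, a marker of dividing cells, stood at 6.76, 2.83 and 2.11 CPM in the Hdac3-/- tumors and 0.809, 6.08 and 11.9 CPM in the recipient tumors. Ccnd1, which drives entry into division, was highest in recipient tumor 1, at 20.3, 13.1 and 13.7 against 63.7, 11.2 and 19 CPM. Myc stood at 63.4, 54.7 and 55.9 against 61.7, 79.7 and 69.4 CPM, above the adjacent 34.3, 35 and 8.26 CPM in every tumor. The imprinted pair H19 and Igf2 was highest in Hdac3-/- tumor 1, at 68.1, 3.13 and 14 and 18.5, 0.607 and 3.91 CPM, against 3.14, 3.99 and 4.63 and 0.101, 2.36 and 1.22 CPM in the recipient tumors; here recipient tumor 3 did not follow Hdac3-/- tumor 1. Alb, the albumin gene, stood at 17624, 87851 and 64755 CPM in the Hdac3-/- tumors and 28632, 42214 and 13458 CPM in the recipient tumors, lowest in the most alike pair.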

How the data were processed

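The series holds bulk mRNA-seq of mouse liver, made per the labels' protocols from frozen tissue with Trizol and the Illumina TruSeq RNA kit. The deposited files give an expected count and an FPKM value per gene, per the file headers. The submitters' processing notes name HISAT, Bowtie2 and the mm10 build, with the estimating program not given in the sources used here. A gene absent from a file was given 0, and 54 of 19638 gene IDs were left without a RefSeq symbol.

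The deposited expected counts were rounded to whole numbers and scaled by the trimmed mean of M-values (TMM). The 3 recipient tumors were compared with the 3 Hdac3-/- tumors by edgeR's quasi-likelihood test (edgeR 4.0.16, limma 3.58.1, R 4.3.3), fitted with the 3 adjacent samples, on the 13187 genes that passed filterByExpr, with Benjamini-Hochberg adjustment over all of them and a threshold of 0.05. DESeq2 1.42.0 and the FPKM values deposited by the authors, as log2(FPKM + 1), served as alternatives. The 9 libraries held 10081603 to 11094627 counts. Nothing in the labels says that replicates are separate animals, so p-values measure the spread between these samples, which may be technical.

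The genes named are the 10 largest differences in each direction among those with no overlap and a mean of 5 CPM or more, up to 3 list members with the smallest p, the genes of widest range and those farthest from both other recipient tumors, and a set of liver and tumor genes. Further genes are said to be picked after their values were seen; of the lists described, members without overlap are named too. A few genes that these rules select are not reported here. The 40 lists of 551 genes, of which 494 were tested, and the groups compared were chosen with earlier results of these data known.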

Additional observations from a re-analysis of the deposited data

How the results depend on the processing

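The counts of genes past the threshold, 0 higher and 0 lower, were the same with only the 6 tumors, another scaling, voom weights, both FPKM fits, no filter or a stricter one, a fit with the Y-linked split, and stricter thresholds. They became 32 and 12 with DESeq2, and 53 and 23 with all 26 samples. Added after seeing the data, DESeq2 called 3 and 5 without recipient tumor 2, and 138 and 139 without the most alike pair of tumors, while edgeR without that pair called 0 and 0 (smallest adjusted p 0.114). Leaving out each tumor in turn gave 0 to 1 genes higher and 0 to 0 lower; the 1 was Eps8, without recipient tumor 3. The cause was not tested.

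Replicate numbers recur in the labels, but the deviations of same-numbered tumors from their group means correlated at -0.02, 0.23 and -0.21 for numbers 1, 2 and 3, the highest value of all, 0.40, joined recipient tumor 3 and Hdac3-/- tumor 1, and nothing ties the numbers to animals. The fit with a replicate block gave 0 genes higher and 0 lower.

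Mean r among recipient tumors was 0.798 on linear CPM and 0.937 over every listed gene (0.887 as reported), and between the groups 0.870 on linear CPM (0.915 as reported). The median SD among recipient tumors was 0.38 on log2(FPKM + 1) (0.44 as reported). The 37 genes named for a difference between the groups were chosen from these same samples, many for having no overlap. None changed direction in 768 values from 21 refits, but genes without overlap keep their direction when a sample is left out. That outcome was thus largely fixed by the choice. The sizes did change: the log2 fold change of Tmem254c fell from 4.40 to 0.60 without recipient tumor 1. That of Obsl1 fell from 5.95 to 2.26 without recipient tumor 2. Levels near 1 CPM rest on about 10 counts, so small margins there are close to counting error.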
